A study of Drosophila melanogaster with 18 samples.

Results

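S2R+ is an adherent Drosophila cell line of embryonic origin with features of blood cells, and its polyadenylated RNA was sequenced after RNA interference. Cells at passages 8 to 10 were treated 3 times in 6 days with double-stranded RNA (10 µg). Controls were treated against LacZ, a bacterial gene, and the other groups against the genes named in the labels Ime4_dMettl14 (a double knockdown), Fl2d, Vir, Nito and CG7358, with 3 libraries in each of the 6 groups. The genes described here are those that were lower, or higher, in all of Fl2d, Vir and CG7358 while staying close to control in Ime4_dMettl14. They were chosen by group means of the counts scaled to a library total of 1000000 (CPM). A gene with a control mean of at least 3 CPM was taken as fallen where its mean was at most 0.72 times control in each of the 3 knockdowns, as risen where it was at least 1.4 times control in each, and in either case only where Ime4_dMettl14 lay between 0.88 and 1.14 times control. Of 17559 gene IDs, 6862 reached the control minimum and 95 met the rule, 81 fallen and 14 risen. All 95 passed the filter on low counts and were among the 8146 genes tested.

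In fly and mammalian cells, N6-methyladenosine (m6A) is placed on messenger RNA by a large nuclear complex. Its catalytic core is the pair of Mettl3, also called Ime4, and Mettl14. The remaining subunits carry no known methyltransferase activity and hold or recruit that core: Fl(2)d, whose mammalian relative is WTAP, Virilizer, Spenito (nito), an RNA-binding protein related to RBM15, and Flacc, annotated from CG7358 and related to ZC3H13. Fl(2)d, Virilizer and Spenito are also known for their part in the splicing of Sex-lethal in fly sex determination. The rule therefore sorts out genes whose level moved on lowering of 3 of these subunits but little on lowering of the catalytic pair, and the Nito libraries, which it did not use, remain for a test.

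Each targeted transcript was lower in its own group than in every control library, at 10.5% of control for Mettl3, 14.4% for Mettl14, 16.2% for fl(2)d, 11.9% for vir, 24.7% for nito and 28.4% for Flacc. Library totals were 15743484 to 18100792 counts, and a member of the 95 had between 50 and 11049 counts in a control library. Whether the libraries within a group are of separate cultures is not stated in the labels, and the p-values below describe the spread among libraries, part or all of which may be technical. Each gene was targeted in a single group with no rescue, and loss of the target and any off-target effect cannot be told apart. In bulk RNA, fewer cells that express a gene and less of its RNA per cell cannot be told apart either.

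The choice by thresholds leaves genes on both sides of each limit. The last fallen genes inside were cu, with a ratio to control of 0.7195 in Fl2d, and lncRNA:CR44526, at 0.719 in CG7358. Just outside lay CG10365 at 0.7209 and CG5704 at 0.724, both in Fl2d. Lasp at 1.4106 and Prosap at 1.424, both in Vir, were the last risen genes inside, against mnb at 1.3958 in Vir outside. At the lower limit for Ime4_dMettl14, CG14642 was inside at 0.8805 and CG13893 outside at 0.8781. The lowest control means inside were 3.28 CPM for snRNA:U12 and 3.39 CPM for CG32814, and the highest outside was 2.84 CPM for CG7458. In all, 125 genes met the limit for a fall in the 3 knockdowns, of which 42 were left out because Ime4_dMettl14 was under 0.88 and 2 because it was over 1.14. Of 28 genes that met the limit for a rise, 14 were left out because Ime4_dMettl14 was over 1.14. On library sizes scaled by TMM (trimmed mean of M values, which sets most genes to no change) the same limits gave 61 fallen and 21 risen genes, a fallen share of 74.4% in place of 85.3%. With each of the 15 libraries the rule used left out in turn, 39 of the 81 fallen genes and 3 of the 14 risen (lncRNA:CR31044, CG12493 and FBgn0000099) met the rule every time.

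The rule set an upper limit for the fallen genes in each of the 3 knockdowns and no lower one. Their median was 62.1% of control in Fl2d (range 32.1% to 72.0%), 60.3% in Vir (34.5% to 71.8%) and 58.8% in CG7358 (34.6% to 71.9%), against 95.4% in Ime4_dMettl14 (88.1% to 113%). All 9 libraries of the 3 knockdowns lay below all 3 control libraries in 80 of the 81, where 19.4% of all genes tested do so. The exception was CG15818, where the third CG7358 library (3.81 CPM) lay above the lowest control library (3.60 CPM). Near control in Ime4_dMettl14 means near by the group mean: the Ime4_dMettl14 libraries overlapped the control libraries in 63 fallen genes, lay below all of them in 15 and above all of them in 3. The share of all genes tested that do so was not computed, so whether these counts are usual is not known. Among risen genes the medians were 156% of control in Fl2d, 164% in Vir, 161% in CG7358 and 106% in Ime4_dMettl14, and in all 14 the 9 knockdown libraries lay above the controls, where 6.36% of genes tested do so. The Ime4_dMettl14 libraries lay above all controls in 5 of the 14 risen genes and overlapped them in 9. For this count too the share of all genes tested was not computed. These values chose the genes and are given with no test.

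**Figure D1:**
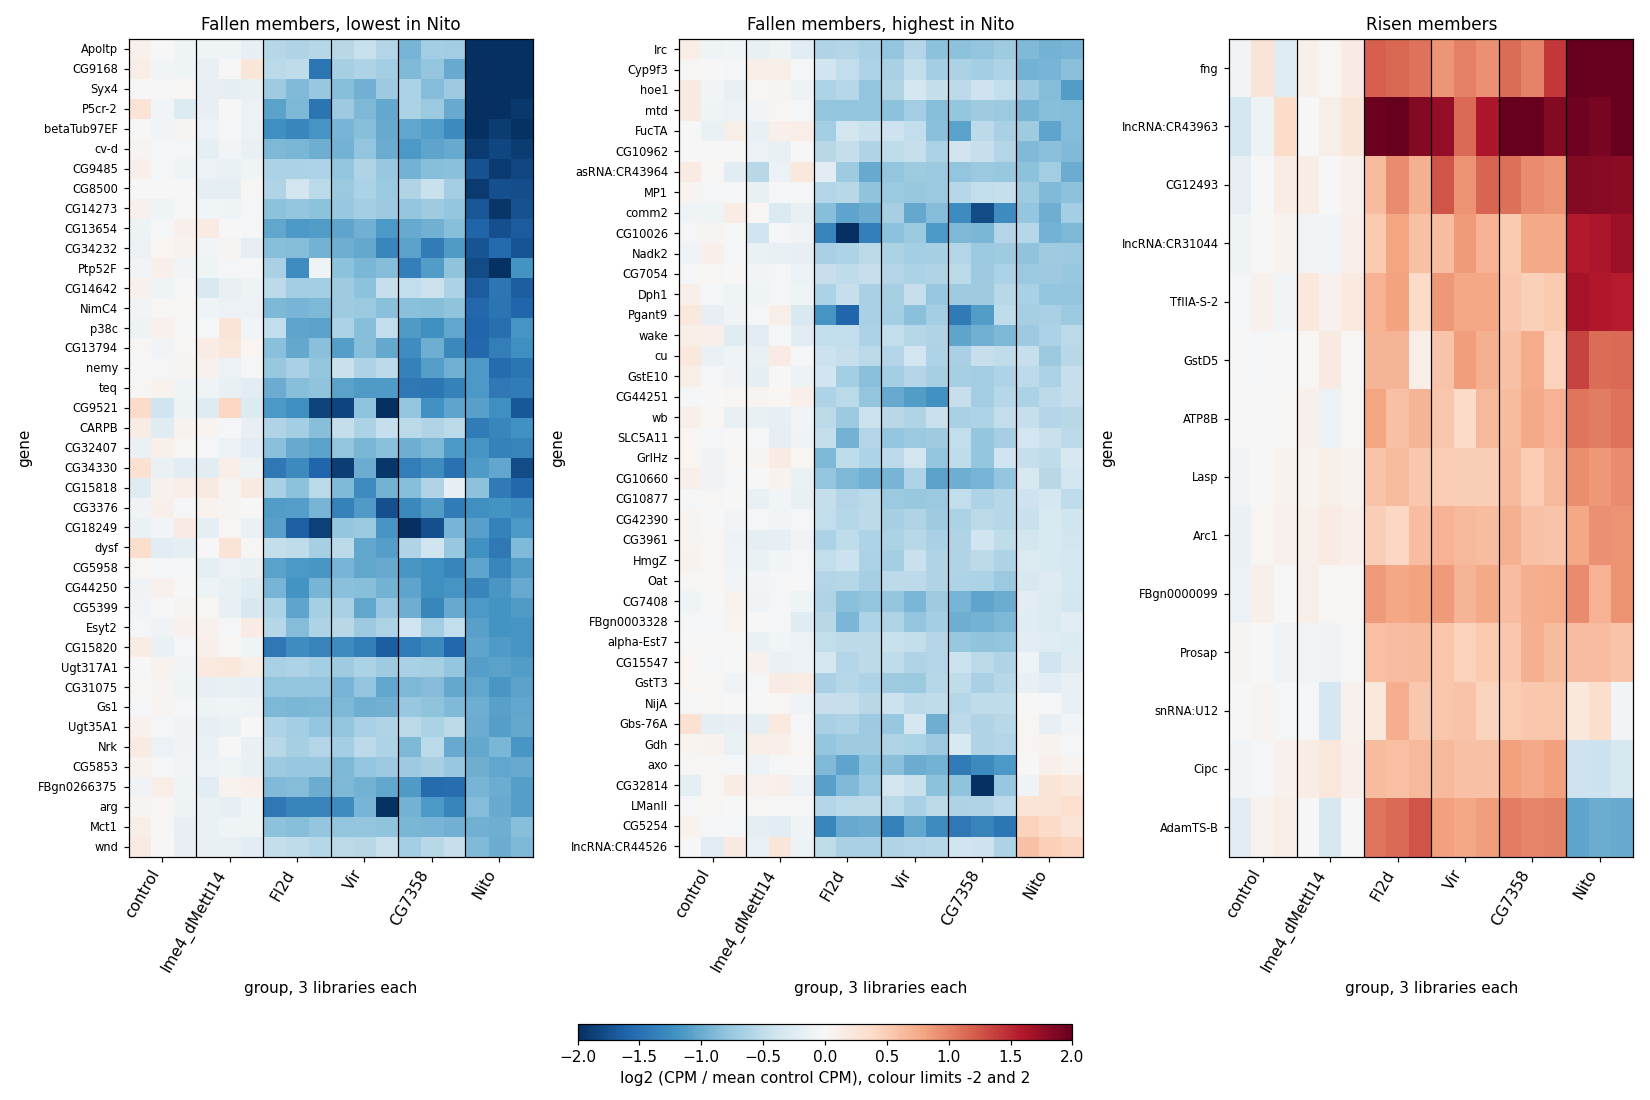
Level of each of the 95 genes in each of the 18 libraries as log2 of the CPM over the mean control CPM (colour, limits -2 and 2), with the 3 libraries of a group side by side and genes ordered by their Nito level, the fallen genes in 2 panels. The Ime4_dMettl14 columns are pale, Fl2d, Vir and CG7358 are of 1 colour in nearly every row, and Nito runs from Apoltp at 15.1% of control to lncRNA:CR44526 at 142% among the fallen.

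The Nito libraries followed for most of the set, and over a wider range than the 3 knockdowns. Among the 81 fallen genes, 71 were lower in Nito than in control (87.7%), 3 were higher and 7 were not called, by edgeR's quasi-likelihood test with Benjamini-Hochberg adjustment over all genes tested and a limit of 0.05. Of all 8146 genes tested, 60.7% were called in Nito, 30.9% lower and 29.8% higher. The median log2 fold change of the 81 was -0.91, from -2.70 in Apoltp to 0.52 in lncRNA:CR44526, against 0.0005 over all genes tested. The Nito median level was 52.6% of control, with a range of 15.1% to 142%. Without any model, all 3 Nito libraries lay below all controls in 73 fallen genes, above them in 3, and overlapped them in axo, CG32814, Gbs-76A, Gdh and NijA. Over all genes tested, 34.6% lay entirely below and 30.4% entirely above. The control libraries stand in both this comparison and the rule, so a control mean that was high by chance would lower both ratios. Of the 14 risen genes, 11 were higher in Nito, AdamTS-B and Cipc were lower, and snRNA:U12 was not called, with a median log2 fold change of 1.00 (-0.9997 to 2.12).

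Set beside the 3 knockdowns, Nito lay both below and above them. One side of this contrast is made of the libraries the rule chose on, so its counts and differences are a description and carry no p-value here. The contrast of Nito with the mean of Fl2d, Vir and CG7358 called 43 fallen genes lower in Nito and 21 higher, where 62.6% of all genes tested were called, 31.8% lower and 30.9% higher, by the same edgeR test. Of the 71 genes that fell in Nito, 43 were called below the 3 knockdowns, 12 above them and 16 were not called apart. Since the rule holds the 3 knockdowns to at most 0.72 and puts no limit on Nito, some spread of Nito to both sides is built in. Nito itself passed the limit of 0.72 in 60 fallen genes and lay in the band of 0.88 to 1.14 in 6. Among risen genes 8 were called higher in Nito than in the 3 knockdowns, 3 lower and 3 were not called apart.

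**Figure D2:**
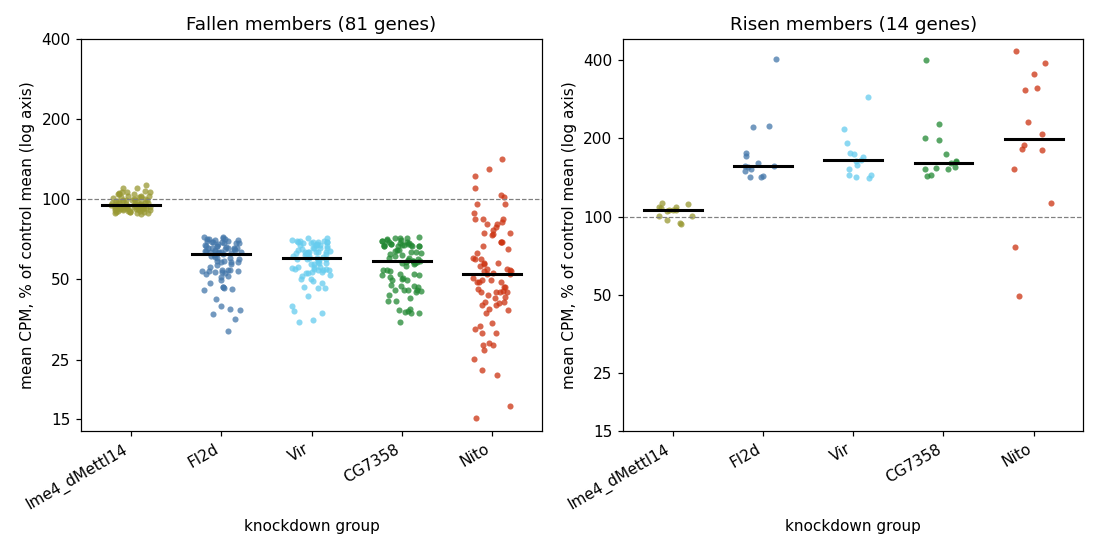
Mean level in each knockdown as a percent of the control mean (log axis), each point 1 gene, with the median of the genes as a black bar, for the 81 fallen and the 14 risen genes. Ime4_dMettl14 lies near 100% (median 95.4% and 106%), the 3 knockdowns of the rule lie in narrow bands, and Nito spreads from 15.1% to 142% among the fallen and from 49.4% to 433% among the risen.

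The lowest means over the 3 knockdowns were those of CG34330, CG15820, CG18249, CG9521, arg, CG3376, CG5254 and teq. CG34330 (FBgn0085359, X, 19068275 to 19068973) held 88.6, 65.1 and 61.1 CPM in control, 61.0, 78.5 and 66.7 in Ime4_dMettl14, 26.6, 29.6 and 23.7 in Fl2d, 19.5, 36.1 and 18.5 in Vir and 27.4, 30.1 and 25.5 in CG7358. In Nito it held 32.5, 34.9 and 20.7 CPM, and its libraries were well apart in control, Vir and Nito, without overlap between these 4 knockdowns and control. CG15820 (FBgn0035312, 3L, 2172995 to 2174332) was less spread in these groups, with 27.2, 22.4 and 24.2 CPM in control, 26.5, 25.4 and 23.3 in Ime4_dMettl14, 9.17, 10.4 and 9.78 in Fl2d, 10.3, 9.40 and 7.90 in Vir, 9.30, 10.05 and 8.25 in CG7358 and 11.9, 11.2 and 10.8 in Nito. Every library of the 4 knockdowns was at most 11.9 CPM and every other library at least 22.4 CPM. CG18249 (3R, 8220146 to 8222188) was a low gene, at 3.60, 3.77 and 4.43 CPM in control, 1.85, 1.27 and 1.07 in Fl2d, 2.30, 2.35 and 1.74 in Vir, 0.851, 1.17 and 2.06 in CG7358 and 1.86, 1.54 and 1.77 in Nito. Its Vir mean, 54.2% of control, lay above its Fl2d and CG7358 means of 35.5% and 34.6%. In Nito the log2 fold changes were -1.28 for CG34330, -1.11 for CG15820 and -1.17 for CG18249 (edgeR adjusted p = 0.000408, 9.77e-13 and 9.68e-06).

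CG9521 belongs to the glucose-methanol-choline family of flavin oxidoreductases, and CG3376, with the RefSeq synonym aSMase, encodes an acid sphingomyelinase, which frees ceramide from sphingomyelin. CG9521 (X, 14851005 to 14853269) varied most, with 17.1, 9.97 and 12.2 CPM in control, 10.9, 17.5 and 10.8 in Ime4_dMettl14, 5.91, 5.57 and 3.64 in Fl2d, 3.68, 7.495 and 2.69 in Vir, 7.54, 5.67 and 6.32 in CG7358 and 6.13, 5.60 and 4.03 in Nito. Its highest knockdown library outside Ime4_dMettl14, 7.54 CPM, still lay under its lowest control library of 9.97 CPM. CG3376 (2R, 24258013 to 24265213) held 9.40, 10.7 and 9.66 CPM in control, 10.4, 10.3 and 9.91 in Ime4_dMettl14, 4.56, 4.62 and 5.19 in Fl2d, 3.86, 4.51 and 2.93 in Vir, 4.07, 4.56 and 3.75 in CG7358 and 4.21, 4.34 and 4.20 in Nito. All 4 knockdowns sat at about the same level, and Nito lay -0.02 from the mean of the 3 on the log2 scale. The serine protease gene teq (3L, 9074643 to 9092131) had 14.95, 15.4 and 13.9 CPM in control, 13.9, 13.3 and 12.7 in Ime4_dMettl14, 7.45, 8.16 and 8.47 in Fl2d, 7.04, 6.73 and 6.70 in Vir, 5.47, 5.43 and 5.75 in CG7358 and 6.69, 5.48 and 5.58 in Nito. Here Fl2d was the highest, Vir the next and CG7358 the lowest of the 3, with no overlap between them, and the Nito libraries overlapped those of CG7358.

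Enzymes that link arginine, proline, glutamate and glutamine were among the fallen genes. Arginase (arg) turns arginine into ornithine, ornithine aminotransferase (Oat) passes ornithine on toward proline and glutamate, pyrroline-5-carboxylate reductase (P5cr-2) makes proline, glutamate dehydrogenase (Gdh) opens glutamate to the citric acid cycle, and glutamine synthetase (Gs1) forms glutamine. The theme was noticed after the values were seen, so it is described and not tested. The gene arg (X, 509435 to 528028) held 10.3, 10.3 and 9.29 CPM in control and 9.03, 8.90 and 9.35 in Ime4_dMettl14. It held 3.69, 3.92 and 3.94 CPM in Fl2d, 4.17, 5.21 and 2.51 in Vir, 5.17, 4.50 and 4.002 in CG7358 and 5.45, 4.97 and 4.64 in Nito. The highest of these 12 knockdown libraries held 5.45 CPM and the lowest control or Ime4_dMettl14 library 8.90. Its exons overlap those of elav and CG4293 on the opposite strand. P5cr-2 (3R, 17534815 to 17537136) went from 14.3, 11.3 and 9.79 CPM in control to 5.60, 6.33 and 4.29 in Fl2d, 7.16, 6.35 and 5.81 in Vir, 7.60, 7.07 and 5.88 in CG7358 and 2.23, 2.74 and 3.09 in Nito. Nito was the lowest group without overlap, at 22.8% of control and -1.23 from the mean of the 3 on the log2 scale.

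Gs1 (2L, 132077 to 134472) had 208, 223 and 211 CPM in control, 199, 201 and 200.2 in Ime4_dMettl14, 115.2, 113 and 114.9 in Fl2d, 115.1, 109 and 109.95 in Vir, 127, 123 and 116 in CG7358 and 109, 101 and 104 in Nito. The 4 knockdowns outside Ime4_dMettl14 lay at 48.8% to 57.1% of control, and Ime4_dMettl14 lay just under control at 93.6%. Oat (3L, 19647280 to 19649851) held 66.5, 67.04 and 62.9 CPM in control, 43.7, 43.9 and 41.2 in Fl2d, 45.6, 45.7 and 43.0 in Vir, 42.5, 42.1 and 39.1 in CG7358 and 52.2, 54.8 and 51.0 in Nito. The Nito libraries stood between control and the 3 knockdowns without overlapping either (log2 fold change against control -0.30, edgeR adjusted p = 5.73e-07). Gdh (3R, 23935958 to 23943101) held 22.2, 22.4 and 19.6 CPM in control, 12.6, 13.1 and 13.1 in Fl2d, 14.1, 13.8 and 12.99 in Vir, 17.4, 14.2 and 14.3 in CG7358 and 22.1, 22.4 and 20.8 in Nito. The Nito libraries of Gdh overlapped the controls and lay above all 9 libraries of the 3 knockdowns. Of 11 genes of this group with a control mean of at least 1 CPM, these 5 met the rule. The other 6 stayed nearer to control: P5cr was at 79.0% in Fl2d, 79.6% in Vir and 84.0% in CG7358, Got1 at 80.4%, 81.4% and 81.0%, slgA (proline dehydrogenase) at 89.0%, 86.2% and 89.5%, and P5CDh1 at 88.7%, 86.6% and 87.2%. Got2 was at 96.4%, 100% and 101%, and Gs2, the second glutamine synthetase, at 68.4%, 82.4% and 89.7%.

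**Figure D3:**
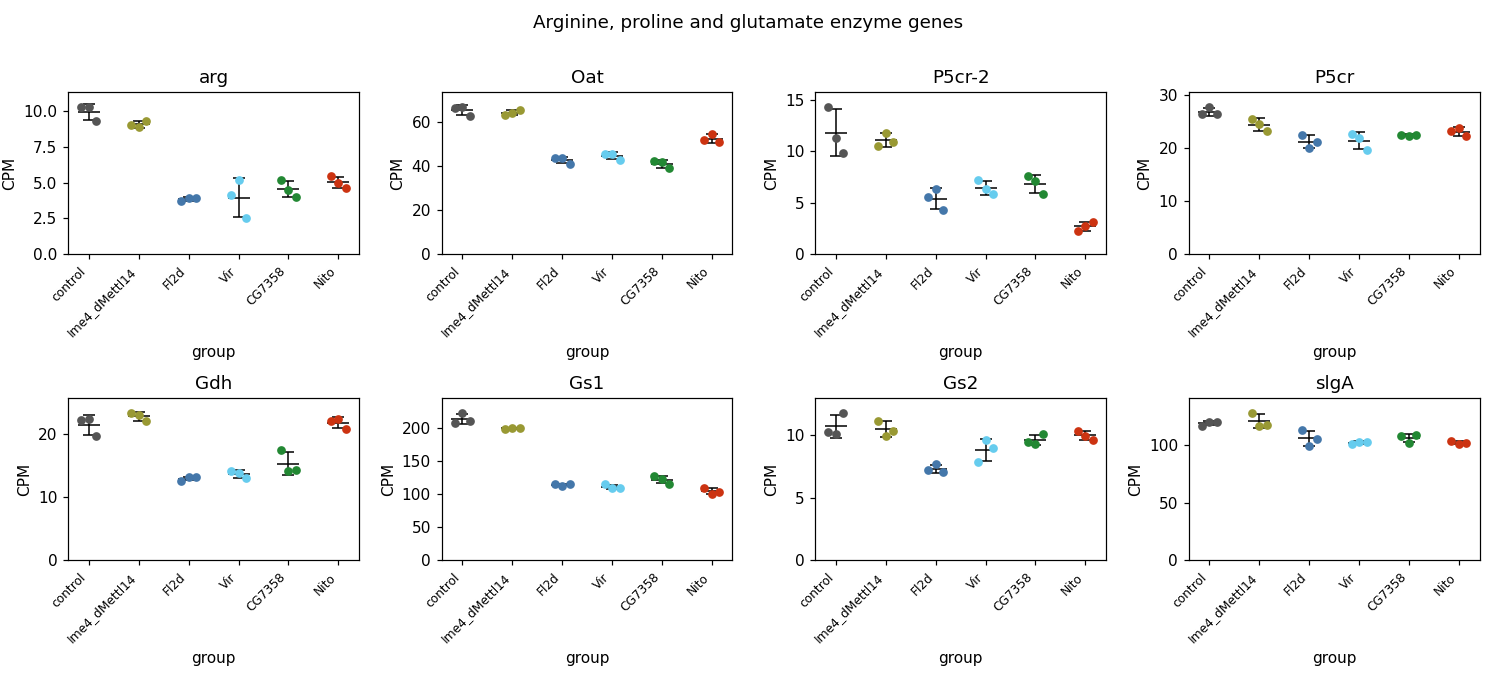
CPM of 8 genes of arginine, proline, glutamate and glutamine metabolism in the 18 libraries (points), with the mean and SD of each group (bars, n = 3). In arg, Oat, P5cr-2, Gdh and Gs1 the Fl2d, Vir and CG7358 libraries lie below all control libraries, Nito is at the control level in Gdh and lowest in P5cr-2, and P5cr, Gs2 and slgA, which did not meet the rule, lie nearer to control.

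Some other fallen genes encode carriers of lipids and small hydrophobic molecules, or proteins that act on glycogen. They were put together after the values were seen, without a count of such genes outside the set and without a test. Apoltp, the apolipoprotein of the lipid transfer particle, held 72.6, 69.1 and 64.6 CPM in control, 46.2, 45.4 and 46.2 in Fl2d, 47.0, 50.2 and 45.9 in Vir, 36.2, 43.0 and 42.3 in CG7358 and 8.55, 10.8 and 11.9 in Nito. It had the lowest Nito level of the set at 15.1% of control (log2 fold change -2.70 ± 0.08 SE, edgeR adjusted p = 6.78e-21). The vitellogenin-like lipoprotein gene cv-d, with 376, 356 and 349.7 CPM in control, 319.7, 347 and 325 in Ime4_dMettl14, 193, 191 and 182 in Fl2d, 188, 209 and 180.4 in Vir, 163, 174 and 179 in CG7358 and 95.7, 103 and 96.5 in Nito, was likewise lowest in Nito without overlap. The CRAL-TRIO proteins CG5958 and CG10026 have a fold that binds hydrophobic ligands. CG5958 stood at 45.6% of control in Fl2d, 50.4% in Vir, 42.6% in CG7358 and 44.8% in Nito, while CG10026 was lower in Fl2d (32.1%) than in Vir, CG7358 or Nito (54.0%, 57.9% and 57.7%). That low Fl2d mean rests in part on its second library, at 1.139 CPM against 2.59 and 2.51 in the others.

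CG9485, the glycogen debranching enzyme, held 187, 173 and 165 CPM in control, 112, 113 and 114 in Fl2d, 102, 115.3 and 103 in Vir, 90.8, 96.4 and 98.2 in CG7358 and 52.5, 46.3 and 49.7 in Nito. Nito lay at 28.3% of control and further down than the 3 knockdowns by 1.12 on the log2 scale. Gbs-76A, which targets a phosphatase to glycogen, had 14.7, 10.5 and 10.6 CPM in control, 7.63, 7.78 and 7.22 in Fl2d, 7.04, 9.46 and 6.05 in Vir, 8.33, 7.89 and 8.13 in CG7358 and 12.3, 10.7 and 11.4 in Nito. Its first control library stood above the other two, and Nito overlapped control. Among membrane carriers, the monocarboxylate transporter gene Mct1 was at 52.6% of control in Nito and between 52.3% and 57.6% in the 3 knockdowns, SLC5A11, of the sodium and solute cotransporters, at 73.1% and 59.8% to 64.3%, and CG13794, of the SLC6 family, at 38.3% and 44.7% to 53.9%. The long-chain acyl-CoA ligase gene CG3961 was at 78.6% in Nito and 65.4% to 70.7% in the 3.

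Some detoxification and redox genes were also among the fallen, likewise put together after the values were seen and not tested as a group. Irc, the immune-regulated catalase, held 287, 245 and 252 CPM in control, 235, 244 and 224 in Ime4_dMettl14, 172, 174 and 166 in Fl2d, 151, 174 and 148 in Vir, 148, 151 and 160.2 in CG7358 and 142, 136 and 137 in Nito. Its Ime4_dMettl14 libraries were all below the controls too, though the group mean of 89.8% kept it inside the rule. The UDP-glycosyltransferase genes Ugt317A1 and Ugt35A1 were at 63.8% and 62.0% of control in Fl2d and at 46.7% and 48.8% in Nito. In Ugt317A1 all 3 Ime4_dMettl14 libraries (82.3, 83.0 and 77.3 CPM) lay above the controls (70.9, 75.4 and 68.6 CPM). Glutathione transferases differed in Nito: GstE10 was called lower at 68.9% of control and GstT3 was not called at 88.7% (edgeR adjusted p = 2.12e-06 and 0.0675). A further glutathione transferase gene, GstD5, was among the risen genes. The cytochrome P450 gene Cyp9f3 was at 53.7% in Nito, the aldehyde dehydrogenase gene CG31075 at 46.9%, the NAD kinase gene Nadk2 at 59.6% and nemy, of the cytochrome b561 family, at 38.7%. The carboxylesterase gene alpha-Est7 held 116, 114.95 and 114 CPM in control, 82.1, 80.4 and 80.3 in Fl2d, 84.4, 82.5 and 76.3 in Vir, 68.2, 66.1 and 66.5 in CG7358 and 98.5, 97.6 and 94.7 in Nito, so that its groups stood in separate steps except for Fl2d and Vir.

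Several fallen genes act at the cell surface, in the matrix or in secretion. NimC4, also called Simu, is a receptor for the engulfment of dying cells, and it held 81.4, 85.6 and 86.5 CPM in control, 45.6, 44.4 and 45.1 in Fl2d, 51.6, 50.4 and 47.4 in Vir, 47.5, 46.7 and 48.3 in CG7358 and 28.5, 30.7 and 28.1 in Nito. Nito was the lowest group, at 34.4% of control (log2 fold change -1.52 ± 0.05 SE, edgeR adjusted p = 2.47e-23). The syntaxin gene Syx4, of the vesicle fusion machinery, showed a wider step, with 39.4, 38.3 and 40.3 CPM in control, 24.1, 21.4 and 23.3 in Fl2d, 21.7, 20.1 and 23.6 in Vir, 25.4, 21.6 and 23.8 in CG7358 and 8.18, 8.62 and 9.06 in Nito. For betaTub97EF, a β-tubulin, the values were 50.2, 49.0 and 52.9 CPM in control, 46.5, 49.9 and 46.5 in Ime4_dMettl14, 21.5, 20.6 and 22.3 in Fl2d, 26.7, 28.2 and 25.3 in Vir, 24.6, 23.6 and 21.0 in CG7358 and 11.8, 13.6 and 12.8 in Nito. In both genes the Nito libraries lay under every other library. The laminin α gene wb, with 60.3, 57.8 and 50.7 CPM in control, 39.3, 33.9 and 41.6 in Fl2d, 38.5, 37.3 and 41.2 in Vir, 35.9, 36.9 and 39.8 in CG7358 and 40.7, 37.6 and 38.2 in Nito, stood at about the same level in all 4 of these knockdowns. The log2 difference between Nito and the mean of the 3 was -0.02 for wb.

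Ptp52F, a receptor tyrosine phosphatase, was at 32.6% of control in Nito, but its Fl2d libraries were far apart at 2.59, 1.71 and 3.82 CPM, the last close to the control libraries (3.90, 4.35 and 3.93 CPM). comm2, of the commissureless family of guidance receptor regulators, was lowest in CG7358 at 37.5% and at 57.4% in Nito. Of the sugar-transfer genes, Pgant9, an N-acetylgalactosaminyltransferase, was at 62.6% of control in Nito and the fucosyltransferase gene FucTA at 54.6%. MP1, a protease of the melanization cascade, was at 57.4% in Nito and highest of the 3 knockdowns in CG7358 at 70.6%. For mtd, whose product has a TLDc domain, the libraries held 338, 281 and 274 CPM in control, 172, 173 and 174 in Fl2d, 169, 183 and 166 in Vir, 175, 182 and 177 in CG7358 and 156, 164 and 162 in Nito. Its first control library was the highest of the 18, and the 12 libraries of the 4 knockdowns all lay under 274 CPM, the lowest control.

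Signalling and regulatory genes were also present. The stress kinase gene p38c was at 45.8% of control in CG7358 and 37.5% in Nito, and wnd, a kinase of the axon injury pathway, at 67.5% and 52.6%. dysf, a transcription factor of the bHLH-PAS family, was at 44.8%, the receptor kinase gene Nrk at 48.9% and the high mobility group gene HmgZ at 80.4% in Nito. wake, which acts in the timing of sleep in flies, was at 69.2% in Fl2d, 68.1% in Vir, 50.8% in CG7358 and 64.8% in Nito, and cu, the fly relative of the deadenylase Nocturnin, at 72.0%, 69.5%, 68.7% and 66.8%. The extended synaptotagmin gene Esyt2, the carbonic anhydrase-related gene CARPB and Dph1, of diphthamide synthesis, were at 45.1%, 40.7% and 60.1% in Nito. All genes of this paragraph were called lower in Nito.

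The other fallen genes carry no role that is stated here. Of these, CG9168, CG8500, CG14273, CG13654, CG34232 and CG14642 were far lower in Nito, at 16.7%, 28.4%, 28.8%, 31.4%, 31.5% and 33.4% of control, each also called below the mean of the 3 knockdowns. CG9168 held 7.45, 6.55 and 6.42 CPM in control, 4.68, 4.81 and 2.51 in Fl2d, 4.30, 4.45 and 4.19 in Vir, 3.71, 3.97 and 3.38 in CG7358 and 1.67, 0.914 and 0.829 in Nito, so its Nito libraries carry few counts. CG32407, CG15818, CG44250, CG5399, CG5853, hoe1, CG10962, asRNA:CR43964, CG7054 and FBgn0266375, which has no name in the reference, were at 41.02% to 59.9% in Nito. CG44251, GrlHz, CG10660, CG10877, CG42390, CG7408 and FBgn0003328, likewise without a name there, were at 68.9% to 84.2%. All 17 of these were called lower in Nito. CG15547 was not called at 84.5% of control (edgeR adjusted p = 0.102).

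Genes that parted from the rest in Nito were few. CG5254, a predicted mitochondrial carrier of oxodicarboxylates, held 17.8, 16.5 and 16.5 CPM in control and 15.1, 14.7 and 16.1 in Ime4_dMettl14, and then 6.90, 8.42 and 8.53 in Fl2d, 6.67, 8.26 and 7.06 in Vir and 6.32, 6.72 and 6.25 in CG7358. In Nito it held 23.2, 22.2 and 20.4 CPM, above every control library, with a log2 fold change of 0.38 ± 0.07 SE against control (edgeR adjusted p = 4.85e-05). Nito thus stood 1.56 above the mean of the 3 knockdowns on the log2 scale. The lysosomal mannosidase gene LManII rose in Nito, from 56.7, 58.8 and 56.9 CPM in control to 69.3, 69.5 and 72.6, against 38.3, 39.5 and 40.02 in Fl2d, 39.4, 36.7 and 39.5 in Vir and 37.4, 38.0 and 39.8 in CG7358. Its Ime4_dMettl14 libraries, at 58.3, 57.1 and 56.6 CPM, overlapped the controls. lncRNA:CR44526, a long noncoding RNA, held 10.4, 8.92 and 11.8 CPM in control, 7.26, 6.58 and 6.62 in Fl2d, 6.85, 6.92 and 7.003 in Vir, 7.84, 7.77 and 6.75 in CG7358 and 15.5, 14.5 and 14.03 in Nito. The log2 fold changes in Nito were 0.31 ± 0.04 SE for LManII and 0.52 ± 0.09 SE for the noncoding RNA (edgeR adjusted p = 1.66e-07 and 2.03e-05), and no Nito library of either overlapped a control.

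A second set was not called against control in Nito. axo, which encodes axotactin, a secreted neurexin-like protein of glia, held 72.2, 71.6 and 68.6 CPM in control, 64.9, 69.6 and 70.7 in Ime4_dMettl14, 38.5, 34.2 and 40.1 in Fl2d, 39.8, 35.6 and 36.6 in Vir, 26.8, 29.4 and 31.9 in CG7358 and 70.4, 75.9 and 73.5 in Nito. Control, Ime4_dMettl14 and Nito overlapped, the Nito log2 fold change was 0.06 ± 0.05 SE (edgeR adjusted p = 0.3), and Nito stood 1.05 above the 3 knockdowns. NijA, a ninjurin, held 38.6, 40.04 and 39.4 CPM in control, 28.6, 28.6 and 26.8 in Fl2d, 29.1, 27.4 and 27.7 in Vir, 26.4, 27.6 and 27.6 in CG7358 and 39.3, 38.3 and 35.7 in Nito. CG32814 held 2.95, 3.48 and 3.74 CPM in control, 1.60, 1.84 and 2.03 in Fl2d, 2.62, 2.48 and 1.92 in Vir, 1.95, 0.818 and 2.001 in CG7358 and 3.22, 4.11 and 3.92 in Nito. Exons of CG32814 overlap those of CG11638 on the same strand, and counts of such genes are uncertain because the counting of overlaps is not given in the sources used here. Together with Gdh, Gbs-76A and GstT3, these genes were not called against control and were called above the 3 knockdowns in Nito, 6 genes in all. In GstT3 all Nito libraries still lay below all controls, and it was called lower without the third control library (log2 fold change -0.20, edgeR adjusted p = 0.045). CG15547 was called in neither contrast. A call missed in Nito does not show that the level equals that of control: the SE of the log2 fold change was 0.05 in NijA and 0.18 in CG32814.

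**Figure D4:**
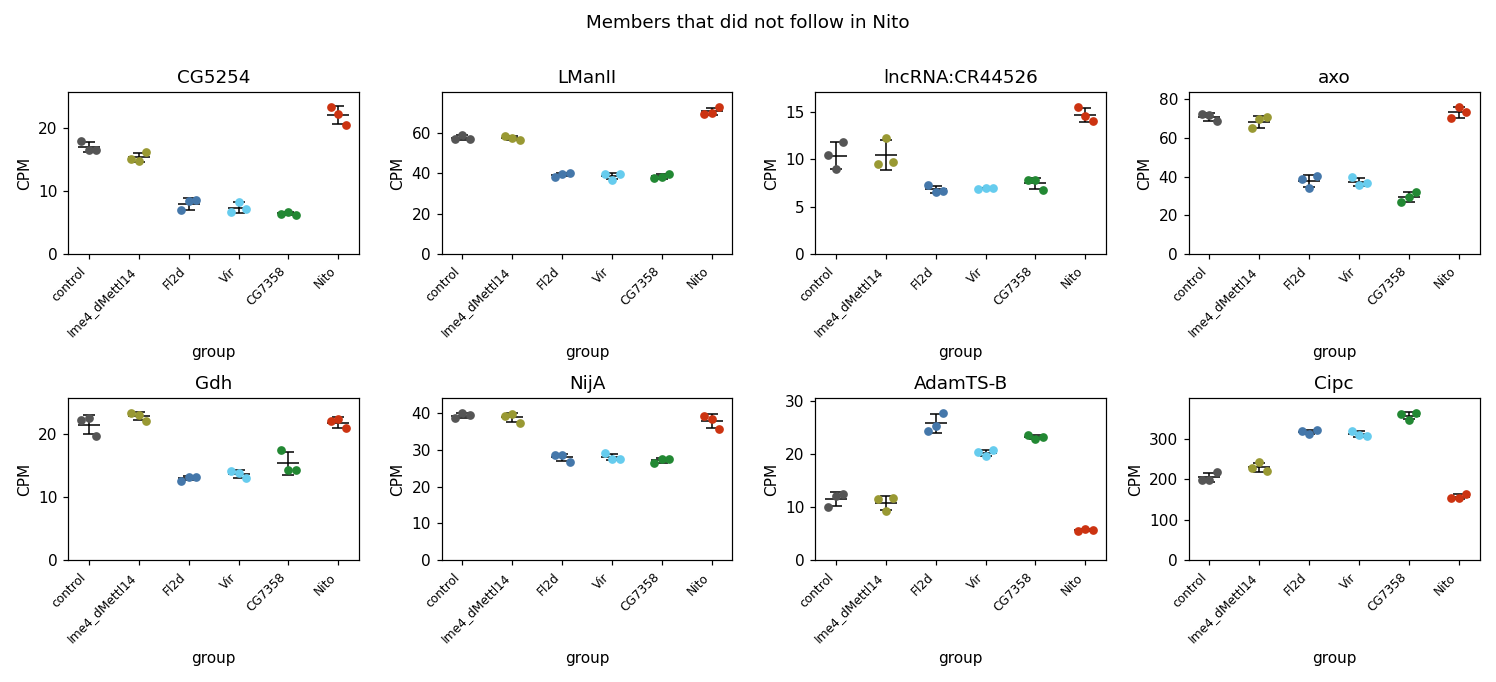
CPM in the 18 libraries (points) with the mean and SD of each group (bars, n = 3) for 6 fallen genes and the risen genes AdamTS-B and Cipc whose Nito level did not follow the 3 knockdowns. In CG5254, LManII and lncRNA:CR44526 all Nito libraries lie above all controls, in axo, Gdh and NijA they overlap them, and in AdamTS-B and Cipc they lie below them.

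The 14 risen genes were 10 protein-coding genes, 3 noncoding RNAs and 1 ID without a name in the reference. lncRNA:CR43963 (X, 12717624 to 12730953) had the highest mean over the 3 knockdowns relative to control, with 3.07, 3.65 and 5.05 CPM in control, 3.90, 4.24 and 4.65 in Ime4_dMettl14, 15.3, 18.04 and 14.02 in Fl2d, 13.3, 8.57 and 12.03 in Vir, 16.6, 16.7 and 13.9 in CG7358 and 15.1, 14.6 and 16.02 in Nito. Vir was the lowest of the 4 knockdowns at 288% of control, against 402% in Fl2d, 401% in CG7358 and 388% in Nito. Its exons overlap those of Smr on the same strand, which leaves its counts uncertain. fng (3L, 20925891 to 20949512), which encodes the glycosyltransferase that modifies Notch, held 3.72, 4.64 and 3.30 CPM in control, 4.19, 3.99 and 4.37 in Ime4_dMettl14, 8.93, 8.61 and 8.23 in Fl2d, 7.16, 7.81 and 7.30 in Vir and 8.39, 7.71 and 10.4 in CG7358. In Nito it held 16.4, 16.7 and 17.4 CPM, 433% of control and above every other library (log2 fold change 2.12 ± 0.11 SE, edgeR adjusted p = 4.98e-17). CG12493 (3L, 4752393 to 4753738) went from 4.02, 4.52 and 4.99 CPM in control to 6.96, 8.67 and 7.40 in Fl2d, 10.8, 8.45 and 10.1 in Vir, 9.67, 8.64 and 8.44 in CG7358 and 16.05, 15.9 and 15.7 in Nito. TfIIA-S-2, a paralogue of the small subunit of the transcription factor TFIIA, went from 5.50, 5.91 and 5.36 CPM to 9.05, 9.81 and 7.28 in Fl2d, 10.2, 9.53 and 9.52 in Vir, 8.15, 7.77 and 8.07 in CG7358 and 17.7, 17.02 and 16.5 in Nito. In fng, CG12493 and TfIIA-S-2 the Nito libraries stood apart above the 3 knockdowns, by 0.99, 0.82 and 0.92 on the log2 scale.

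lncRNA:CR31044 (3R, 29214562 to 29219667), whose exons overlap the microRNA genes mir-279 and mir-996, held 7.92, 8.46 and 8.79 CPM in control, 8.09, 8.11 and 9.02 in Ime4_dMettl14, 12.01, 14.6 and 12.6 in Fl2d, 12.9, 15.1 and 13.5 in Vir, 12.04, 14.2 and 14.1 in CG7358 and 25.3, 25.9 and 27.5 in Nito. It too was higher in Nito than anywhere else. FBgn0000099 held 155, 180.5 and 168 CPM in control, 183, 172 and 173 in Ime4_dMettl14, 302, 288 and 293 in Fl2d, 302, 269.6 and 283 in Vir, 259, 279 and 283 in CG7358 and 323, 273 and 312 in Nito. Prosap, the fly Shank, a scaffold known from synapses, held 653, 629 and 597 CPM in control, 601, 599 and 620.3 in Ime4_dMettl14, 951, 958 and 967 in Fl2d, 918, 863 and 896 in Vir, 906, 1022 and 975 in CG7358 and 961, 963 and 935 in Nito. In FBgn0000099 and Prosap none of the 4 knockdowns outside Ime4_dMettl14 overlapped control. The Vir libraries of Prosap lay below those of Fl2d and Nito, and the Fl2d libraries of FBgn0000099 above those of CG7358. Arc1, which encodes a capsid-forming protein related to retroviral Gag, held 291, 327 and 341 CPM in control, 451, 425 and 490.3 in Fl2d, 519, 501 and 489 in Vir, 522, 481 and 473 in CG7358 and 545, 603 and 595 in Nito. Lasp, an actin-binding LIM and SH3 protein, rose to 189% of control in Nito, the phospholipid flippase gene ATP8B to 208% and the glutathione transferase gene GstD5 to 230.4%. The third Fl2d library of GstD5, at 8.95 CPM, lay just above the controls (8.16, 8.05 and 8.23 CPM).

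**Figure D5:**
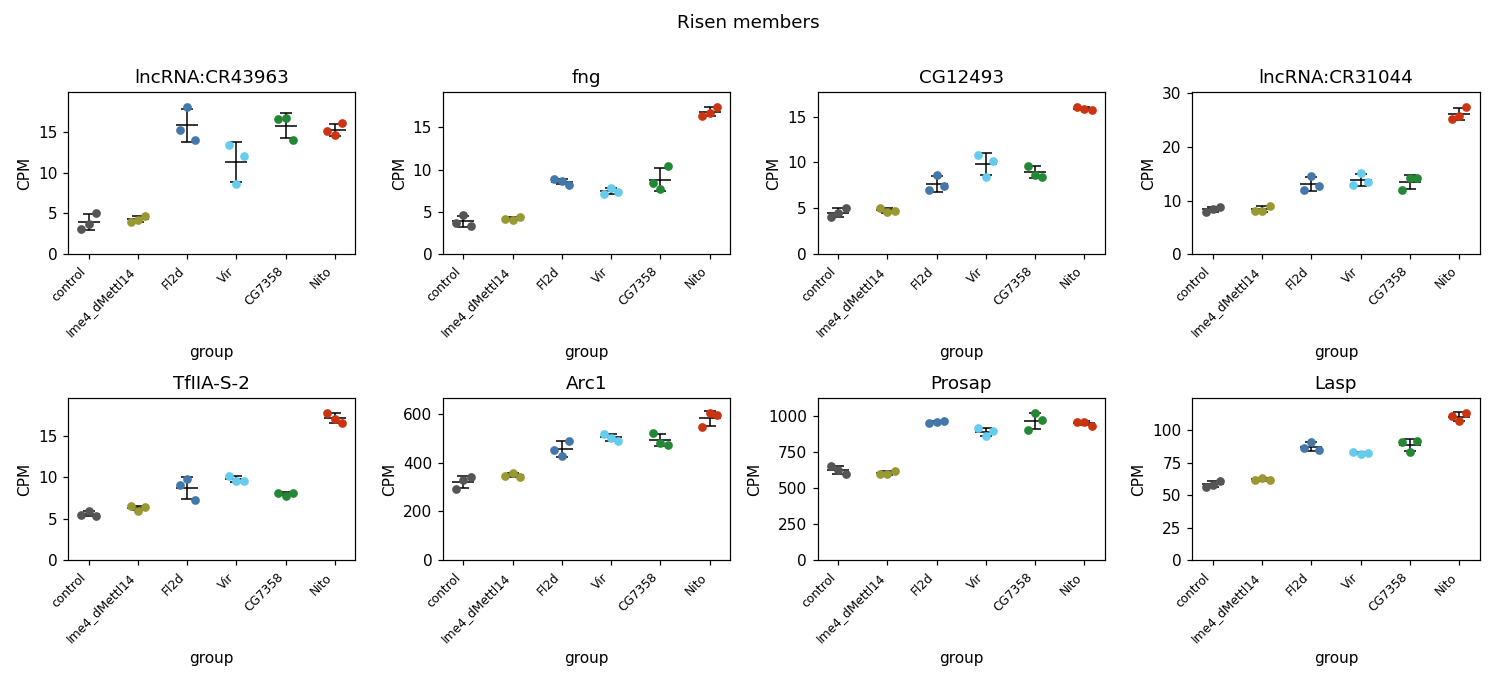
CPM of 8 of the 14 risen genes in the 18 libraries (points) with the mean and SD of each group (bars, n = 3). Fl2d, Vir and CG7358 lie above all controls in each, and Nito lies above these 3 knockdowns in fng, CG12493, lncRNA:CR31044 and TfIIA-S-2, at 306% to 433% of control. In Arc1 and Lasp the Nito mean also lies above the means of these 3 knockdowns.

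AdamTS-B and Cipc went the other way in Nito. AdamTS-B, a secreted metalloprotease of the matrix, held 9.99, 12.2 and 12.5 CPM in control, 11.5, 9.21 and 11.6 in Ime4_dMettl14, 24.3, 25.4 and 27.7 in Fl2d, 20.3, 19.7 and 20.7 in Vir, 23.5, 22.8 and 23.1 in CG7358 and 5.58, 5.82 and 5.75 in Nito. It was thus at 223% of control in Fl2d and 49.4% in Nito, with no overlap of either with control. Cipc, named for the CLOCK-interacting protein, held 198, 199 and 218 CPM in control, 227, 241 and 219 in Ime4_dMettl14, 319, 311 and 321 in Fl2d, 319.5, 308 and 307 in Vir, 360.1, 347 and 363 in CG7358 and 155, 152 and 164 in Nito. Against control the Nito log2 fold changes were -0.9997 ± 0.11 SE and -0.37 ± 0.04 SE (edgeR adjusted p = 2.39e-09 and 3.01e-09), and against the mean of the 3 knockdowns the differences were -2.04 and -1.10. For snRNA:U12, the small nuclear RNA of the minor spliceosome, the libraries held 3.25, 3.42 and 3.18 CPM in control, 3.82, 5.44 and 4.77 in Fl2d, 4.80, 4.89 and 4.49 in Vir, 4.68, 4.79 and 4.81 in CG7358 and 3.78, 4.17 and 3.15 in Nito. Nito overlapped control in snRNA:U12 (log2 fold change 0.18 ± 0.16 SE, edgeR adjusted p = 0.325).

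The rule bounds the levels in Fl2d, Vir and CG7358 without fixing their order. Most members were not called apart among them, and neither were most of all genes tested, at most 13.7% of which were called in any 1 contrast. Over the 3 pairwise contrasts 28 of the 95 genes were called in at least 1, with 40 calls in all, and 58 fallen and 9 risen genes in none. The share of all genes tested called in at least 1 was not computed, so these counts do not set the members apart. The genes were chosen on these same group means, which bounds the differences, so the calls are a description and no p-value is given for them. Of these calls, 17 held under every alternative that was run. Between Fl2d and Vir, 5 fallen genes differed, 2 of them higher and 3 lower in Fl2d, where 5.98% of all genes tested were called, 3.5% higher and 2.48% lower. betaTub97EF was lower in Fl2d (log2 difference -0.32, SE 0.07), CG44251 was higher there (0.46, SE 0.08), and so was the risen gene AdamTS-B (0.35, SE 0.08). CG44251 and CG44250 share exons on 1 strand, and how their shared reads were counted is not given in the sources used here.

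More fallen genes were called between CG7358 and each of the others than between Fl2d and Vir, and the same held over all genes. Against Fl2d, 10 fallen genes were lower and 3 higher in CG7358, where 11.8% of all genes tested were called, 5.29% lower and 6.47% higher. Against Vir, 12 were lower and 4 higher, where 13.7% were called, 6.33% lower and 7.41% higher. Called lower in CG7358 than in both were 6 fallen genes, axo, nemy, CG9485, FBgn0003328, wake and alpha-Est7. Both calls held under every alternative in axo, wake and alpha-Est7. In axo the log2 difference of CG7358 was -0.35 from Fl2d and -0.34 from Vir. For wake, with 19.8, 19.5 and 15.5 CPM in control, 13.1, 13.04 and 11.8 in Fl2d, 13.02, 12.3 and 11.97 in Vir and 8.76, 9.35 and 9.75 in CG7358, the differences were -0.43 and -0.41, and no CG7358 library overlapped either group. teq was lower in CG7358 than in Fl2d by 0.52 on the log2 scale, and nemy lower than in Vir by 0.59. Higher in CG7358 than in Vir were MP1 by 0.25 and CG44251 by 0.55. Cipc, a risen gene, was higher in CG7358 than in Fl2d by 0.18 and than in Vir by 0.20. The risen genes lncRNA:CR43963 and Prosap were higher in CG7358 than in Vir by 0.49 and 0.13, but these calls were lost under 6 and 4 of 12 alternatives.

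The set was spread over the genome. Its median control level was 28.6 CPM in the fallen and 9.98 CPM in the risen genes. Over all genes with at least 3 CPM in control it was 57.4 CPM. Positions are on the build BDGP6, and 79 fallen and 13 risen genes were in the annotation. Fallen genes lay on X (10), 2L (13), 2R (15), 3L (16) and 3R (25), the last 30.9% of the 81, where 3R holds 23.7% of all genes with at least 3 CPM in control. Of the 81, 77 were protein-coding. Their median exon length was 2017 bases against 2141 over all such genes, their median intron length in the canonical transcript 1298 bases against 392.5, and their median 3′ untranslated region 188 bases against 277. In the risen genes these medians were 2371, 301 and 668 bases, from 13 genes for exons and introns and 10 for the untranslated region. These are descriptions, and no test was made of them. Exons on the opposite strand overlapped 23 of 81 fallen genes (28.4%) and 3 of 14 risen, against 37.5% of all such genes. The library kit was directional, but the strand setting of the counting is not given in the sources used here. Exons on the same strand overlapped 7 fallen genes (CG44250, CG44251, CG32814, Nrk, Nadk2, CG15547 and CG10962) and 3 risen genes (lncRNA:CR43963, lncRNA:CR31044 and Lasp), whose counts are uncertain for this reason.

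Some members lay close together. dysf, fallen, and Cipc, risen, were 8156 bases apart on 3R, and TfIIA-S-2, risen, and CG32814, fallen, were 8151 bases apart on X. The fallen genes wnd and Oat on 3L were separated by 11496 bases, CG15818 and CG5958 on 2L by 18300, and GstD5, risen, and Cyp9f3, fallen, on 3R by 19434.

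Among 16 lists of pathway and marker genes, 4 held a member and the other 12 held none. Without a member were the lists of lipid and inositol metabolism (17 genes matched) and of flavin monooxygenases and cytochrome P450 (16 matched). The lists are not complete: the fallen genes Cyp9f3, a cytochrome P450 gene, and CG3961, a long-chain acyl-CoA ligase gene, are not among the matched genes. Members without a name in the reference could not be matched to a list. The integrin and matrix list, with 24 of 27 genes matched, held wb and AdamTS-B. In Nito 14 of its 23 tested genes were lower and 2 higher, with a median log2 fold change of -0.25. Over all genes tested, 30.9% were called lower in Nito and 29.8% higher. The counts in the lists below rest on few genes and are not read as a shift of a pathway. Non-members that fell in Nito include Tig (tiggrin), an integrin ligand, at 35.8% of control, and the α-integrin genes if and mew at 48.6% and 48.4%. Tig stood at 64.8% in Fl2d, 53.2% in Vir, 77.7% in CG7358 and 87.3% in Ime4_dMettl14. The gene if stood at 45.9%, 49.5%, 43.8% and 84.1% in the same groups, and mew at 99.3%, 93.9%, 75.8% and 98.9%, so that if failed the rule only through Ime4_dMettl14. Of the Notch list, which held fng, 6 of 12 tested genes were higher and 4 lower in Nito. The receptor gene N was at 75.2% of control in Nito and the target gene E(spl)mbeta-HLH at 123% (log2 fold changes -0.40 and 0.32, edgeR adjusted p = 6.08e-11 and 2.5e-06). Of 6 tested tubulin genes 3 were lower and 1 higher in Nito, and betaTub97EF, at 25.2% of control, was the lowest, the others lying between 85.9% and 114%. Of the 4 tested glucose-methanol-choline oxidoreductases CG9521 was lower in Nito and ninaG, at 0.26 CPM in control, was higher.

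Markers of blood cells, checked against the label of the cell line, were present. Of 16 matched haemocyte genes, 13 reached 1 CPM in control, while gcm, lz and NimC1 were at 0.0197, 0.101 and 0.238 CPM. Their summed level was 2370 to 2460 CPM in control, 2530 to 2570 in Fl2d, about 2350 in all Vir libraries, 2440 to 2480 in CG7358, 2450 to 2500 in Ime4_dMettl14 and 2120 to 2150 in Nito. Neuron markers, of which 4 of 11 reached 1 CPM in control, summed to 61.8 to 67.3 CPM in control and 87.0 to 94.6 in Nito, against 46.1 to 70.7 in the other groups. VGlut and ChAT were at 0 in control, and nSyb and Syt1 were at 0.3 and 0.275 CPM. Muscle markers (2 of 8 matched at 1 CPM) summed to 96.6 to 107 CPM in control and 88.0 to 89.4 in Nito, and fat body markers (1 of 9) to 2.62 to 3.84 and 3.35 to 3.81. A few genes make most of each sum, so the sums do not measure cell types. Mef2 alone was at 98.6 CPM in control and 85.3 in Nito. Nrg went from 27.9 to 38.4 CPM in Nito and elav from 25.4 to 31.9 (not called, edgeR adjusted p = 0.13). Fer1HCH, ush and crq were at 875, 502 and 435 CPM in control and at 786, 532 and 353 in Nito. drpr went from 62.2 CPM in control to 190 in Fl2d, 134 in Vir, 130 in CG7358 and 106 in Ime4_dMettl14. In Nito it was at 53.6 CPM. Whether these shifts in Nito had a part in the levels of the 95 genes was not tested.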

How the data were processed

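Polyadenylated RNA of S2R+ cells was sequenced from directional libraries, per the labels' protocols. The authors deposited raw counts of reads for each FlyBase gene, in 18 tables. Named in the submitters' processing notes are BDGP6, featureCounts 1.5.1 and STAR 2.5.1b. The annotation behind the counts, and how strand, overlapping genes and multiple mapping were handled, is not given in the sources used here.

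Libraries were grouped by the treatment label. CPM are the deposited counts scaled to a library total of 1000000. Libraries of a group differed by more than sampling noise (chi-square per degree of freedom 2.25 to 14.7) and were kept apart. The main test was that of edgeR 4.0.16 under R 4.3.3, with filterByExpr, which kept 8146 genes, TMM, and a robust quasi-likelihood fit to all 18 libraries with 1 coefficient per group, with p-values adjusted by Benjamini and Hochberg over all genes tested and a limit of 0.05. The common biological coefficient of variation was 0.0432. The test was run on simulated counts with 50 genes changed at each of 1.25, 1.5, 2 and 4 fold in Nito. It recovered 74%, 86%, 90% and 98% of them, with 9 false calls among 183. Far fewer genes changed there than the 60.7% called in the Nito libraries, so the simulation does not check the test under so broad a change. Contrasts with control that the rule used were not tested for the members, and contrasts with 1 or both sides among Fl2d, Vir and CG7358 are given as a description.

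Names and positions come from Ensembl release 115 of the same assembly name, in which 17253 of 17559 IDs were found, the other 306 being given by ID only. Of the genes in the 16 lists, 19 were not matched. The members and the lists were chosen with earlier results of these data known. Grouping by role and the amino acid enzyme list came after the values were seen and received no test. Any member could be named, with values per library for the 8 of each direction furthest from control, the 4 with the highest control CPM, those on a list, those called the opposite way in Nito and those nearest the thresholds, and for further members chosen after their values were seen. As alternatives the cuts of the rule were changed, each library was left out in turn, the fit was limited to the groups compared or given the replicate number as a block, the filter was dropped or raised to over 5 CPM in 3 libraries, and DESeq2 1.42.0 gave the size factors or the test.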

Additional observations from a re-analysis of the deposited data

Results flagged for a closer look

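CG5254, fallen by the rule, was called higher in Nito than in control, and its Nito level lay 1.56 above the mean of Fl2d, Vir and CG7358 on the log2 scale. LManII, fallen by the rule, was called higher in Nito, 0.82 above that mean. For lncRNA:CR44526, also fallen by the rule and called higher in Nito, the difference was 1.01. AdamTS-B, risen by the rule, was called lower in Nito and lay -2.04 from that mean. Cipc, risen by the rule and called lower in Nito, lay -1.10 from it. In each of the 5 genes every library of the 3 knockdowns of the rule lay on one side of all controls and every Nito library on the other. The genes were picked for these opposite directions, so the difference itself was not tested.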

How the results depend on the processing

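The membership moved with the cuts and the scaling. With cuts of 0.67 and 1.5 the rule gave 45 fallen and 7 risen genes, with a control minimum of 10 CPM 63 and 7, with CPM on TMM library sizes 61 and 21, with DESeq2 size factors 62 and 21, and with each library left out in turn 73 to 83 and 12 to 17. On library totals the median log2 ratio to control was -0.06 in Fl2d, -0.06 in Vir, -0.07 in CG7358, -0.04 in Nito and -0.01 in Ime4_dMettl14. TMM and DESeq2 size factors are made to take out such a shared offset. Its part in the changed counts was not tested. All 87 calls of members in Nito held under every alternative in which the gene was tested. Among members not called, Gbs-76A turned to 0.11 (log2, adjusted p = 0.435) without control replicate 1, in a range of -0.14 to 0.11 with a library left out, Gdh to -0.03 (0.776) without control replicate 3, in a range of -0.03 to 0.06, and GstT3 was called lower at -0.20 (0.045) without control replicate 3, all by edgeR. The number of fallen genes called lower in Nito was 67 to 72 and that of risen genes called higher 11 throughout. The counts over all genes also moved in the 3 smaller contrasts. Fl2d against Vir gave 487 genes, 237 with only the groups compared and 197 to 634 with a library left out. CG7358 against Fl2d gave 958, 549 with only the groups compared and 621 to 1022. CG7358 against Vir gave 1120 and, with a library left out, 715 to 947. Leaving out a library removes samples from a small fit.

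The replicate numbers did not pair the samples: deviations of same-numbered libraries correlated at -0.08 to 0.11, and 6 of 21 matched their own number best. With the replicate number as a block, Nito against control gave 4923 genes in place of 4948 and again 71 fallen genes called lower, and the 3 smaller contrasts gave 484, 930 and 1093. Members with counts near 50 in a control library limit the precision of single calls, as in snRNA:U12 and CG32814.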
